A study of Mus musculus with 6 samples.

Results

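The smooth muscle contractile genes described here are Acta2, Actg2, Tagln, Cnn1, Cnn2, Myl9, Myh11, Tpm1, Tpm2 and Cald1, measured in mouse 1G11 cells with and without overexpression of SOD3. Spots were chosen by name, taking every non-control spot whose gene symbol, product description or accession belonged to one of these 10 genes. This gave 27 of the 59305 non-control spots, carrying 18 different sequences, of which 26 spots were named by symbol or accession and 1 (a transcript contig described as tropomyosin 1) by its product alone. Spots were taken by name alone, whatever their intensity, but the genes themselves were listed with earlier results of these data known.

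1G11 is an endothelial cell line from the small vessels of C57BL/6NCrLBR mice. The 1G11-mock cells do not overexpress SOD3, an extracellular enzyme that converts superoxide to hydrogen peroxide, and the 1G11-SOD3 cells are the same line modified to overexpress it. Both lines had spent 6 h in conditioned medium of the mouse tumor cell line N202.1A when RNA was isolated, so there is no array of cells without this medium. RNA from 3 independent experiments per line was labeled with a single dye and hybridized to 6 Agilent mouse arrays on 1 slide. The labels name 1 line of each kind, so the effect of SOD3 cannot be told apart from any other difference between these lines.

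Contraction of smooth muscle rests on filaments of actin sliding along filaments of myosin. The actins Acta2 and Actg2 form the thin filaments, Myh11 and Myl9 are a heavy chain and a regulatory light chain of smooth muscle myosin, and the tropomyosins Tpm1 and Tpm2, the calponins Cnn1 and Cnn2, caldesmon (Cald1) and transgelin (Tagln) bind to or lie along actin. Many of these genes are driven by serum response factor (SRF) with its partners of the myocardin family, which bind a short DNA element named the CArG box, and they are markers of smooth muscle cells, pericytes and myofibroblasts rather than of resting endothelium, although Cnn2, Tpm1 and Cald1 are also made by many non-muscle cells.

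The 5 genes that differed between the lines in what follows were each measured by 1 oligonucleotide of 60 bases. The first 30 bases of each are given here to show which stretch of the transcript was read, in lower case and 5′ to 3′ as the scanner output gives them.
Acta2: gttttgtggatcagcgcctccagttccttt
Actg2: tctggggatccccacaagactgctgtcacc
Myl9: cttaggcttgtggagttgtctcagcacccc
Tagln: ctttgaaggagacccagcccagcctctaca
Cnn1: acacacgcattttggttttgcagtgactgg
The array annotation places the Acta2 oligonucleotide at chr19:34316060-34316119 (minus strand), that of Actg2 at chr6:83462904-83462963 (minus), that of Myl9 at chr2:156607301-156607360 (plus), that of Tagln at chr9:45738097-45738156 (minus) and that of Cnn1 at chr9:21913058-21913117 (plus). The files do not name the build of these positions, and 3 of the 18 member sequences lay inside the gene of the same symbol in GRCm38, so the exon or untranslated region they fall in was not assigned. Actins are close relatives, but the longest run of bases that the Acta2 or Actg2 sequence shared with the other or with a sequence for Actb, Actg1, Acta1 or Actc1 was 7 bases.

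All values are log2 intensities after background correction and quantile normalization, in which 1 unit is a doubling. Levels of different sequences are not compared with each other, because sequences differ in how brightly they hybridize. The scanner software scored 34.2% to 38.5% of spots per array as well above background on 5 arrays and 43.8% on 1G11-SOD3 replicate 3, and no spot was saturated. The place of a spot mattered, since spots in rows 129 to 256 and columns 55 to 109, called the middle here, read dim on the 1G11-mock arrays. In blocks of spots, the median log2 difference between the lines (1G11-SOD3 minus 1G11-mock) ran from -0.78 to 2.997. The lines also occupied different rows of the slide, so slide row and cell line cannot be told apart. For these reasons the 4 member spots in the middle are given apart from the 23 elsewhere, and each difference is also given after position adjustment, in which the smooth trend of each array across its rows and columns was subtracted. The sequence for Sod3 itself lay in the middle and read 13.61, 12.66 and 9.86 in 1G11-mock and 16.37, 16.30 and 16.26 in 1G11-SOD3 (replicates 1, 2 and 3), a log2 difference of 4.27 (limma, adjusted p = 0.00763) and of 2.53 after position adjustment.

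**Figure D1:**
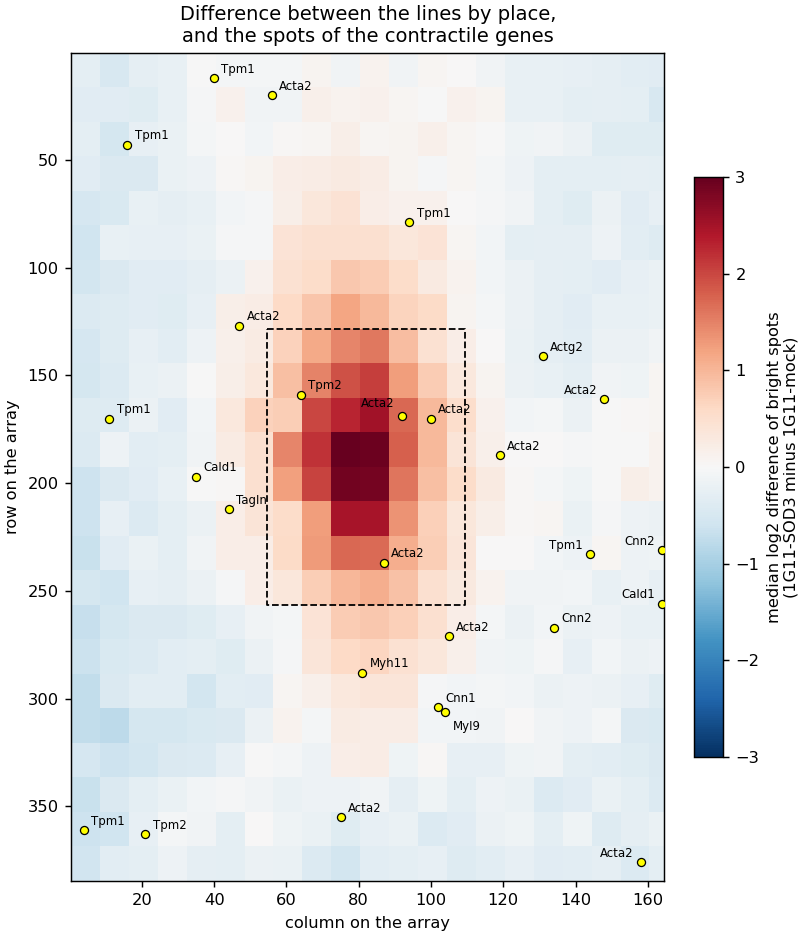
Map of the array, with row and column of the spot on the axes and, in color, the median log2 difference between the lines (1G11-SOD3 minus 1G11-mock) of bright spots in blocks. The dashed box marks the middle, where blocks reach 2.997, and the yellow points are the 27 spots of the contractile genes, 4 of them in the box.

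Outside the middle the members gave 17 features (a feature is 1 sequence with its copies in 1 zone averaged). With limma over all 55960 features, and calling a difference that exceeded 2-fold with an adjusted p under 0.05, 5 of these 17 were higher in 1G11-SOD3 cells (Acta2, Actg2, Tagln, Cnn1 and Myl9) and 0 were lower. At an unadjusted p under 0.05, 7 were higher and 0 lower, where 4.68% of all features outside the middle were higher at that level. Among all 49526 features outside the middle, 0.660% were called higher, 1.20% lower and 1.86% in either direction. The median log2 fold change was 0.23 over the 17 member features and -0.06 over all features outside the middle, with 11 member features above 0 and 6 below. The 3 1G11-SOD3 arrays did not overlap the 3 1G11-mock arrays for 7 of the 17, against 19.7% of all features outside the middle. In the middle, 1 of 2 member features was called, where 12.0% of all features were. After position adjustment 6 of the 17 were called in either direction (6 higher, 0 lower), against 1.91% of all features outside the middle.

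**Figure D2:**
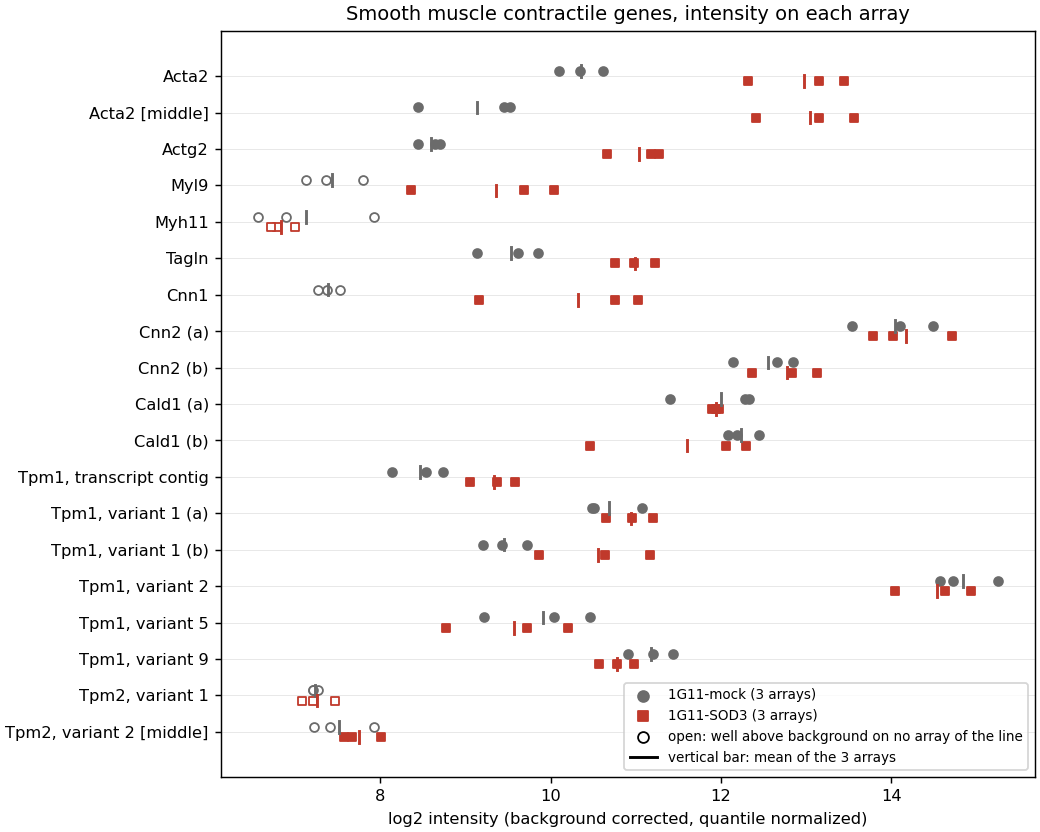
Log2 intensity (x axis) of each contractile gene feature (y axis) on each of the 3 1G11-mock arrays (gray circles) and 3 1G11-SOD3 arrays (red squares), with a vertical bar at the mean of each line. Open symbols mark a line in which the feature was well above background on no array. Acta2, Actg2, Tagln, Cnn1 and Myl9 are the called features, and in each of them the 3 red squares lie right of the 3 gray circles.

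Both smooth muscle actins were higher in 1G11-SOD3 cells. Acta2, smooth muscle α-actin, is the actin of vascular smooth muscle and of myofibroblasts. It has 7 copies outside the middle, of which 1 (row 376) was marked as an outlier by the scanner software on 1G11-SOD3 replicates 1 and 3 and was left out there. The remaining copies averaged 10.10, 10.34 and 10.62 in 1G11-mock replicates 1, 2 and 3 and 13.44, 13.15 and 12.32 in 1G11-SOD3 replicates 1, 2 and 3. Every 1G11-SOD3 array was above every 1G11-mock array, and replicate 3 was the lowest of the 1G11-SOD3 arrays and the highest of the 1G11-mock arrays. The difference was 6.14-fold, or 2.62 on the log2 scale (SE 0.302, 95% interval 1.96 to 3.28, n = 3 arrays per line, limma adjusted p = 0.00107), and 2.60 after position adjustment. It was called with any 1 array left out, at 2.36 to 2.97.

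Acta2 was the member with copies in both zones, so 1 sequence could be compared with itself across the array. The 3 copies in the middle averaged 9.45, 9.52 and 8.44 in 1G11-mock and 13.56, 13.15 and 12.41 in 1G11-SOD3. The 1G11-SOD3 values were close to those outside the middle, whereas the 1G11-mock values were lower on each array. The resulting log2 difference in the middle was 3.90 (SE 0.355, adjusted p = 0.000329), where neighboring bright spots differed by 1.31 between the lines, and it came to 2.53 after position adjustment (adjusted p = 0.00231). Copy by copy, the log2 difference ran from 2.31 to 2.91 outside the middle, outlier readings being left out, and from 3.47 to 4.32 within it, where the neighbors of each copy differed by 1.02 to 1.66. The copy at row 376 stood at 2.84 without its outlier readings and at 2.18 with them. With all 10 copies averaged regardless of place the difference was 3.01. Over the 399 sequences printed 10 times, the SD of the difference among copies of 1 sequence was 0.657 and fell to 0.247 after position adjustment.

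**Figure D3:**
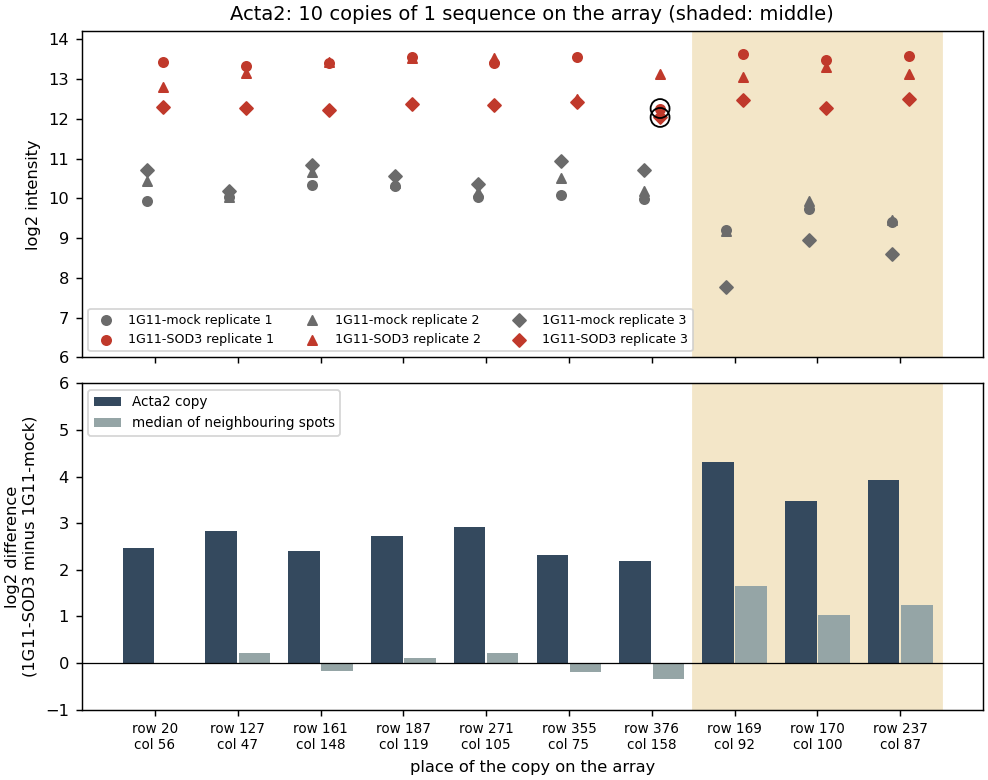
Top, log2 intensity of the 10 copies of the Acta2 sequence on each array, with the copies ordered by zone and row on the x axis and rings around the 2 outlier readings of the copy at row 376. Bottom, the log2 difference between the lines for each copy, all readings kept, beside the median of its bright neighbors. The 3 copies in the shaded middle differ by 3.47 to 4.32 and the 7 elsewhere by 2.18 to 2.91 (2.31 to 2.91 without the ringed readings), and the 1G11-mock points are lower in the middle on all 3 arrays.

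Actg2, smooth muscle γ-actin, is the actin of visceral smooth muscle. Its single spot read 8.64, 8.44 and 8.70 in 1G11-mock and 11.28, 11.18 and 10.66 in 1G11-SOD3. The replicates of each line lay close together and the lines did not overlap. The log2 difference was 2.45 (SE 0.241, 95% interval 1.92 to 2.97, 5.45-fold, adjusted p = 0.000384), 2.82 after position adjustment, and 2.31 to 2.60 with any 1 array left out.

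The 2 members of the myosin motor could be read only in part. Myl9, the regulatory light chain whose phosphorylation starts contraction, read 7.36, 7.79 and 7.13 in 1G11-mock, where it was well above background on 0 of 3 arrays, and 9.69, 10.04 and 8.36 in 1G11-SOD3, where it was so on 3 of 3. The 1G11-mock values are therefore only a ceiling, and by the means Myl9 was at least 2.42-fold higher in 1G11-SOD3 cells. This bound sets the mean of the 1G11-SOD3 arrays against the lowest signal that counted as well above background on each 1G11-mock array, or the feature's own signal where that was higher. The Myl9 call was the least stable of the 5. It was lost without any 1 of the 1G11-mock arrays (adjusted p = 0.0549, 0.0572 and 0.0732 without replicates 1, 2 and 3) and without 1G11-SOD3 replicate 1 or 2 (0.0843 and 0.0618), and held without 1G11-SOD3 replicate 3 (0.00677). It was also lost without background correction (adjusted p = 0.0740) and held after position adjustment (adjusted p = 0.0255). Myh11, the heavy chain that marks mature smooth muscle, has 1 sequence here, which the array annotation assigns to transcript variant 2. It was not well above background on any of the 6 arrays, so no fold is given for it. It was called lower only with the scanner software's own processed signal, under which 10009 features of the whole array were called lower.

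Among the actin-binding proteins, Tagln and Cnn1 were higher in 1G11-SOD3 cells. Tagln (SM22α), an early marker of smooth muscle, read 9.62, 9.85 and 9.14 in 1G11-mock and 10.98, 11.22 and 10.76 in 1G11-SOD3. All 3 1G11-SOD3 arrays were above the highest 1G11-mock array. The log2 difference was 1.45 (SE 0.254, 95% interval 0.90 to 2.01, 2.74-fold, adjusted p = 0.0105) and 1.40 after position adjustment. It was called with any 1 array left out, with an adjusted p of up to 0.0497.

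Cnn1, calponin 1, is found mainly in differentiated smooth muscle, where it restrains the myosin ATPase. It read 7.27, 7.38 and 7.52 in 1G11-mock, well above background on 0 of 3 arrays, and 10.76, 11.03 and 9.16 in 1G11-SOD3, well above on 3 of 3. The 1G11-SOD3 arrays thus spread widely, with replicate 3 the lowest, but all were above the 1G11-mock arrays. Cnn1 was at least 4.69-fold higher in 1G11-SOD3 cells (adjusted p = 0.00309), and the call held with any 1 array left out and after position adjustment (adjusted p = 0.00545).

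The broadly expressed relatives did not pass the test. Cnn2, the calponin of many non-muscle cells, has 2 sequences on the array. The first read 13.54, 14.49 and 14.11 in 1G11-mock and 14.02, 14.71 and 13.79 in 1G11-SOD3, and the second read 12.14, 12.84 and 12.66 against 12.83, 13.13 and 12.36. The lines overlapped for both. Their log2 differences were 0.12 (95% interval -0.56 to 0.81) and 0.23 (95% interval -0.38 to 0.83), so a change of up to about 0.8 on this scale is within what 3 arrays per line leave possible. Cald1, caldesmon, which holds back actin and myosin binding, was measured by 2 sequences. They read 12.33, 12.28 and 11.40 against 11.94, 11.98 and 11.89, and 12.08, 12.45 and 12.19 against 10.46, 12.06 and 12.29. The second spot of 1G11-SOD3 replicate 1 was low beside the other 5 arrays, and its log2 difference was -0.64 (95% interval -1.53 to 0.26, adjusted p = 0.530), and -0.06 without that array. For the first it was -0.06 (95% interval -0.67 to 0.54).

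Tpm1 makes several tropomyosins by alternative splicing and is covered here by 6 sequences, 5 of them assigned to transcript variants 1, 2, 5 and 9 by the array annotation. They did not move alike, and 0 of the 6 were called. A pair of the sequences was designed on variant 1 and overlaps by 46 of 60 bases, the second starting 14 bases after the first. Their first 30 bases are shown for this overlap, with the shared 16 bases in capitals.
Tpm1 variant 1, first: ccttagggccaggcACAGACTGCTTTCTAT
Tpm1 variant 1, second: ACAGACTGCTTTCTATtgtacagaagcaat
The array annotation places them at chr9:66875796-66875855 and chr9:66875782-66875841, both on the minus strand. The first read 10.51, 10.48 and 11.08 in 1G11-mock and 10.95, 11.20 and 10.66 in 1G11-SOD3, so the lines overlapped, with a log2 difference of 0.25 (95% interval -0.31 to 0.81, adjusted p = 0.721). The second read 9.43, 9.20 and 9.72 in 1G11-mock and 11.16, 10.63 and 9.86 in 1G11-SOD3, so all 1G11-SOD3 arrays were above all 1G11-mock arrays, though replicate 3 by little, with a difference of 1.10 (95% interval 0.40 to 1.80, adjusted p = 0.104). The first spot lies at row 361 and column 4, an edge where the fitted surface stood at -0.68 between the lines, and the second at row 12 and column 40, where it stood at -0.03. After position adjustment the pair read 0.93 (adjusted p = 0.0828) and 1.19 (adjusted p = 0.0370), so the second was then called. The second was also called without 1G11-SOD3 replicate 3 (1.43, adjusted p = 0.0423).

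The other Tpm1 sequences went both ways without passing the test. The tropomyosin 1 transcript contig read 8.54, 8.14 and 8.74 in 1G11-mock and 9.59, 9.37 and 9.05 in 1G11-SOD3, with no overlap and a log2 difference of 0.86 (95% interval 0.32 to 1.41, adjusted p = 0.103). On the 1G11-mock and then the 1G11-SOD3 arrays, variant 2 read 14.57 to 15.25 and 14.04 to 14.94, variant 5 read 9.22 to 10.46 and 8.77 to 10.20, and variant 9 read 10.91 to 11.43 and 10.56 to 10.98. The lines overlapped in each. Their log2 differences were -0.31, -0.34 and -0.40, with adjusted p of 0.688, 0.754 and 0.487, and 0.06, -0.18 and -0.07 after position adjustment. A test of the difference between Tpm1 transcripts was not run. Tpm2, the other smooth muscle tropomyosin, could not be followed. Its variant 1 sequence never rose well above background, and its variant 2 sequence, in the middle, was so on 1 1G11-SOD3 array alone, so no fold is given for either.

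**Figure D4:**
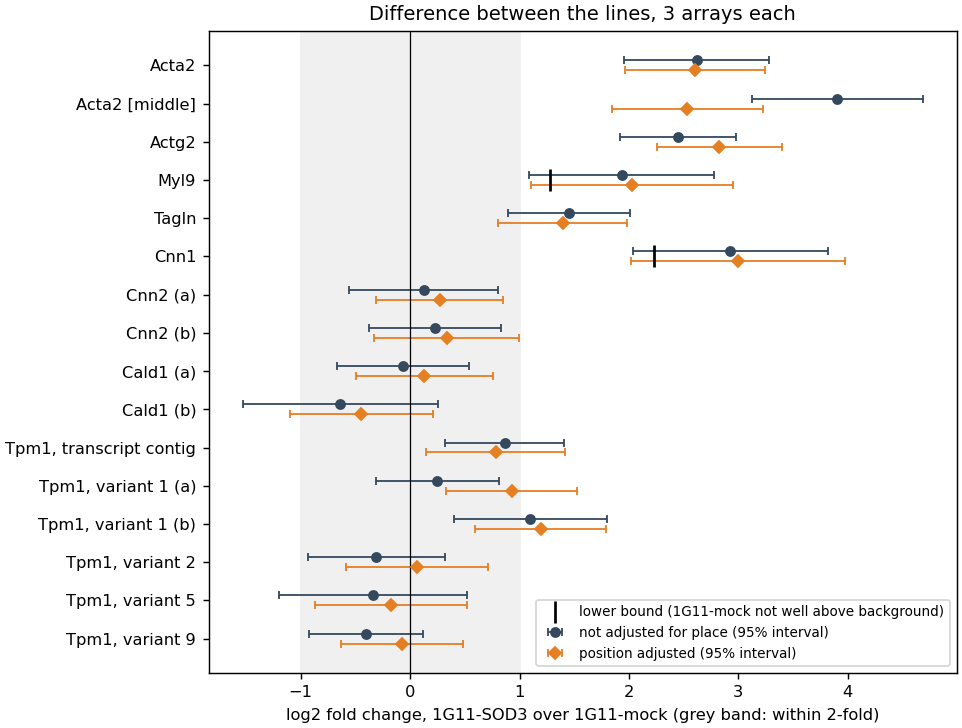
Log2 fold change, 1G11-SOD3 over 1G11-mock (x axis), of the contractile gene features for which a fold or a bound is given (y axis), with 95% intervals, before (circles) and after (diamonds) position adjustment. The gray band is within 2-fold and black ticks are lower bounds on the means, without sampling error. Position adjustment moved Acta2 in the middle from 3.90 to 2.53 and the first Tpm1 variant 1 feature from 0.25 to 0.93, and Acta2 outside the middle from 2.62 to 2.60.

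The 5 called members shared 1 trait across arrays. In each, replicate 3 was the lowest of the 3 1G11-SOD3 arrays. The same was true of 194 of the 327 features called higher outside the middle (59.3%), so this order was common among features that rose. Without that array 6 of the 17 member features were called, and without any 1 of the other 5 arrays 4 were.

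CArG boxes, for which the letters CC, then 6 bases that are each A or T, then GG were searched on both strands, were looked for in the 300 bases around each gene's start (250 before and 50 after) in RefSeq GRCm38.p6. Promoters were matched by symbol for 7 of the 10 members, with 8 promoters in all, and not for Actg2, Tagln and Myh11. The box was found in 2 of these 8 promoters, those of Cnn2 and Myl9, and in 1.63% of all 32851 promoters. By gene this was 2 of 7 members and 1.81% of all 27025 genes. Both windows are shown with 15 bases on either side and the box in capitals.
Cnn2, chr10:79988529-79988568 (plus strand): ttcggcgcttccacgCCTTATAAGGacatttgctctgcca
Myl9, chr2:156775288-156775327 (plus strand): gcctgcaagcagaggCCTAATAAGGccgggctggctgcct
The box of Cnn2 starts 56 bases before the annotated start and that of Myl9 161 bases before it. Of these 2 genes Myl9 was called higher and Cnn2 was not, and of the 5 others searched Acta2 and Cnn1 were called higher with no match to these letters in the window. A box that departs from these letters, or that lies outside the 300 bases, would not be found by this search.

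Genes related to the members were counted from lists chosen for their function. Outside the middle 0 of their 61 features, from 40 genes, were called in either direction, where 1.86% of all features were. In so few features a count of 0 is near that share. At an unadjusted p under 0.05 there were 13 of the 61 (8 higher, 5 lower), against 12.7% of all features outside the middle. The paralogs made by most cells or by striated muscle (Actb, Actg1, Acta1, Actc1, Tagln2, Tagln3, Cnn3, Myl6, Myl12a, Myl12b, Myh9, Myh10, Tpm3 and Tpm4) gave 0 called of 21 features, with a median log2 fold change of -0.01. Regulators of myosin (Mylk, Ppp1r12a, Ppp1r12b, Ppp1r14a, Rhoa, Rock1 and Rock2) gave 0 of 12, with a median of -0.35. Other smooth muscle or SRF target genes gave 0 of 18, with a median of 0.10, and 8 of their 14 genes were well above background on any array.

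These counts were sensitive to the processing, including the pairing of arrays by replicate number. With replicate as a block in limma, 4 of the 61 features were called. Csrp2, a LIM domain protein of smooth muscle and myofibroblasts, read 11.05, 11.77 and 12.67 in 1G11-mock and 12.71, 13.91 and 13.94 in 1G11-SOD3, so replicate 1 was the lowest in both lines. Its log2 difference was 1.69, with an adjusted p of 0.0585 unpaired and 0.00322 with the block, and it was 1.82 after position adjustment (adjusted p = 0.00737). Other unpaired alternatives also called Csrp2, among them cyclic loess normalization (limma adjusted p = 0.0456) and the middle left out (0.0400), while several did not. Also called with the block were Myl12a, a non-muscle regulatory light chain, at 1.26 (adjusted p = 0.0430), Tpm4, a cytoplasmic tropomyosin, at -1.05 (adjusted p = 0.0318), and Ppp1r12a, the targeting subunit of myosin phosphatase, at -1.02 (adjusted p = 0.0484). After position adjustment these 3 stood at 0.31, -0.82 and -0.18. Position adjustment added Myl6b, a myosin light chain, at 1.25 (adjusted p = 0.0480, from 0.82 before). Tagln2 was called in the middle, at 3.18, where it came to 1.12 after position adjustment (adjusted p = 0.239), and its sequence outside the middle differed by 0.20.

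The regulators of smooth muscle genes did not pass the test in any of their 10 features outside the middle, with a median log2 fold change of -0.24 and 0 features at an unadjusted p under 0.05. Srf was read by 2 sequences, with log2 differences of -0.38 (adjusted p = 0.595) and 0.20 (adjusted p = 0.835). Its coactivator Mrtfa was read by 2 sequences, at -0.56 (adjusted p = 0.419) and 0.09 (adjusted p = 0.928), and Mrtfb was well above background with 1 of 3 sequences, at -0.33 (adjusted p = 0.697). Elk1, which competes with myocardin for SRF, was read by 2 sequences. The first read 17.84 to 18.29 over the arrays and differed by 0.17 (adjusted p = 0.792), and the other was well above background on no array. Whether the bright sequence reads Elk1 was not tested. Myocd, the myocardin of smooth and heart muscle, was not well above background on any array. Klf4, a repressor of smooth muscle genes, was read only in the middle, at 0.23 (adjusted p = 0.902) and -1.06 after position adjustment (adjusted p = 0.0968).

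Some markers of other cell types that make these contractile genes were also higher in 1G11-SOD3 cells, though most of the called ones ordered the 1G11-SOD3 replicates differently. Of the 9 fibroblast marker features outside the middle 4 were called higher in 1G11-SOD3 cells, with a median log2 fold change of 0.83 over the list. They were Col1a1 and Col3a1, fibrillar collagen chains, at 3.096 (adjusted p = 0.00148) and 1.43 (adjusted p = 0.0231), and Lum and Col1a2, which were well above background on no 1G11-mock array and were at least 2.24-fold and 1.36-fold higher. Fap and Postn did not rise well above background on any array, and Thy1 did on 1. Pdgfra, called in the middle at 1.49 (adjusted p = 0.0306), came to 0.52 after position adjustment and differed by 0.27 outside the middle. Dcn read 13.51, 13.59 and 17.05 on the 1G11-SOD3 arrays, so that replicate 3, the lowest for the 5 contractile genes, was the highest for Dcn, as it was for Lum (8.80, 8.62 and 10.33). The mean log2 level over the 9 fibroblast features was 9.73 to 9.95 on the 1G11-mock arrays and 10.38 to 11.13 on the 1G11-SOD3 arrays.

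Of 6 pericyte marker features 1 was called, Pdgfrb, the receptor for platelet-derived growth factor B, which read 8.41, 8.25 and 8.12 against 10.67, 10.49 and 10.79 (log2 difference 2.39, adjusted p = 0.000347). Replicate 3 was the highest of the 1G11-SOD3 arrays for Pdgfrb and the lowest for Notch3 (10.51, 10.47 and 9.62). Notch3 differed by 1.19 (adjusted p = 0.0888), while Rgs5, Kcnj8 and Abcc9 did not rise well above background on any array and Cspg4 did on 1. The mean level over the 6 lay between 7.94 and 7.995 on the 1G11-mock arrays and between 8.36 and 8.63 on the others. The striated muscle list gave 0 called of 9 features, 0 of them at an unadjusted p under 0.05, and Myod1, Myog, Ckm, Tnnt3 and Ttn were not well above background outside the middle. Tnnt2, a troponin of heart muscle, was well above background on all 6 arrays, reading 12.58, 13.49 and 13.90 in 1G11-mock and 13.39, 12.12 and 11.98 in 1G11-SOD3 (log2 difference -0.83, adjusted p = 0.393).

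Only some of the endothelial markers rose well above background on these arrays. Eng, Vwf and 1 of 2 Kdr sequences were well above background on all 6 arrays and Pecam1 on 2 of 3 in each line, whereas Cdh5, Tek, Tie1, Erg and Emcn were not so on any array and Cldn5 was so on 1. Flt1 and Esam were read in the middle, well above background on 5 and 6 of the 6 arrays. The Cdh5 sequence read 6.62 to 7.27 over the 6 arrays, where a low level of RNA cannot be told from none. Cdh5 encodes VE-cadherin. The authors regularly checked the endothelial origin of the line by staining for VE-cadherin. Such staining reads protein, which the arrays do not measure, so the missing RNA signals do not decide the identity of the line. Vwf, von Willebrand factor, fell by 1.65 on the log2 scale in 1G11-SOD3 cells (adjusted p = 0.00327). After position adjustment it stood at -1.31 and missed the threshold (adjusted p = 0.0514). Eng differed by -1.05 (adjusted p = 0.0822) and Kdr by -0.51 (adjusted p = 0.294). The mean level over the 12 endothelial features outside the middle lay between 8.27 and 8.70 on the 1G11-mock arrays and between 8.03 and 8.32 on the 1G11-SOD3 arrays. A different share of cells of a type and a different amount of RNA per cell cannot be told apart in such bulk RNA, and the part of these markers in the contractile gene differences was not tested.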

How the data were processed

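Total RNA of 3 1G11-mock and 3 1G11-SOD3 samples was measured on single-color Agilent arrays. The authors deposited raw intensities of each spot and its local background (Agilent Feature Extraction 10.7.3.1, not normalized between arrays) and a table of log2 values, which they had background corrected with normexp (offset of 50) and quantile normalized. That table was recomputed to within 0.005 with median pixel intensities and control spots kept. It holds no column of any sample outside the series.

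Here mean intensities of all spots were corrected with normexp (offset of 50) and log2 transformed. Control spots were then left out and the rest quantile normalized. Readings marked as outliers were left out after normalization, before copies were averaged. Copies of a sequence were averaged within the middle and outside it, giving 55960 features. The lines were compared with limma 3.58.1 (R 4.3.3) with Benjamini-Hochberg adjustment over all features. The position surface was fitted with mgcv 1.9.3 to each array's deviation from the 6-array mean, with the sequences printed 10 times held out. Neighbors are spots within 9 rows and 6 columns that were well above background on at least 3 arrays. Sequences and figures were handled with pandas 2.3.3, numpy 2.4.6 and, for plots, matplotlib 3.10.9 (Python 3.11.15). The procedure was tested on simulated data.

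The members and all lists were chosen with earlier results of these data known. All 10 members are named with every sequence. Named besides are the regulators of smooth muscle genes, related genes called in the middle, with the replicate block or after position adjustment, and markers that were called or define a list, some of them after their values were seen. Alternatives were other background corrections and scalings, the deposited table, dim probes left out, outlier spots kept, 2 position corrections, the middle left out, copies averaged, a variance trend, the replicate as a block and each array left out.

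The main comparison was unpaired. For the replicate block alone, the replicate numbers, which are also the slide column, were taken to pair the arrays. The reason was that deviations from the line means correlated at 0.167, 0.101 and 0.157 between arrays of the same number. Between arrays of different numbers the correlation ran from -0.170 to 0.056, so all of these values were weak. The precision rests on 3 arrays per line and on signal over background. P-values measure the spread between these independent experiments on 1 line of each kind.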

Additional observations from a re-analysis of the deposited data

How the results depend on the processing

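Of the 5 members called higher outside the middle, Acta2, Actg2, Tagln and Cnn1 were called under every alternative run, and Myl9 under all but no background correction and 5 of the 6 arrays left out. The number of member features called outside the middle was 5, and 4 to 7 under the alternatives (4 to 6 with 1 array left out). The middle Acta2 feature was called wherever the middle was kept apart. The replicate block changed no member's call. The count for related genes (0) became 4 with the processed signal, 4 with 75th percentile scaling, 1 with cyclic loess, 3 with dim probes left out, 2 with the position surface, 1 with neighboring spots taken off, 1 with the middle left out, 1 with copies averaged over the whole array (Tagln2, in the middle), 4 with the replicate block and 0 to 1 with 1 array left out. Over the whole array 1692 features were called (1095 higher, 597 lower). This became 1093 without background correction, 11244 with the processed signal (1235 higher, 10009 lower), 2687 with 75th percentile scaling, 768 with the middle left out and 800 to 1878 with 1 array left out. The position surface gave 652 higher and 1671 lower, neighboring spots 610 and 1471, cyclic loess 1088 and 459. The median of all features moved to -0.52 with the processed signal and to -0.33 with 75th percentile scaling. Differences near 0 changed sign. The first Cald1 sequence read 0.11 with 75th percentile scaling, 0.046 with cyclic loess, 0.13 with the position surface, 0.0027 with neighboring spots taken off, 0.10 with the middle left out, and -0.37 to 0.10 with 1 array left out (0.10 and 0.07 without 1G11-mock replicates 1 and 2). The first Cnn2 sequence read -0.14 to 0.34 with 1 array left out (-0.13 without 1G11-mock replicate 1 and -0.14 without 1G11-SOD3 replicate 2). Tpm1 variant 2 read 0.26 with the processed signal, 0.061 with the position surface and 0.088 with neighboring spots, variant 5 read -0.69 to 0.053 with 1 array left out (highest without 1G11-SOD3 replicate 1), and variant 9 read 0.18 with the processed signal. None of these was called. Where not shown by an alternative's construction, the cause was not tested. Spots of Myh11, Tpm2 and the 1G11-mock values of Cnn1 and Myl9 were limited by signal over background.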
